A study of Mus musculus with 6 samples.

Results

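The gene set described here is the machinery by which newly made proteins enter the endoplasmic reticulum (ER) and fold there. It was chosen as a list of 49 named genes, each represented by the probe set of that 1 gene symbol with the highest mean over 6 arrays. Of the 18193 genes with a probe set of their own on the array, 48 belong to it. Sec61g, a small subunit of the ER channel, was the member with no such probe set. All 48 others passed the filter on dim probe sets. The arrays, made by Affymetrix, hold RNA of marrow myeloid cells from the femur and tibia of mice that were all female, HdcGFP and C57BL/6. In these mice green fluorescent protein reports on Hdc, the gene of the enzyme that makes histamine. Cells carrying CD11b and Gr1, surface antigens of granulocytes and monocytes, were sorted by reporter signal. The GFP_plus group holds the cells positive or high for the reporter (3 arrays) and the GFP_min group those negative or low for it (3 arrays). Both groups share the genotype, the sex, the tissue and the 2 surface antigens, and the labels give no treatment, age or pooling of animals. The description of GFP_min replicate b reads Gr1-negative, while its sorted-cell label reads Gr1-positive like all the others. Without that array 1 member was higher and 36 were lower. The labels do not tell whether each array had its own mouse. The p-values therefore cover the spread among these 6 samples alone, and that spread may be technical.

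Proteins bound for secretion, for granules or for membranes carry a signal sequence, which leads the ribosome to the Sec61 channel of the ER membrane. While the chain passes through, signal peptidase removes the signal and the oligosaccharyltransferase attaches sugar chains, and inside the ER chaperones of the Hsp70 and Hsp90 type and disulphide isomerases fold the chain. When unfolded protein accumulates, the sensors Ern1 (IRE1), Atf6 and Eif2ak3 (PERK) start the unfolded protein response, which raises chaperones, folding enzymes and ER-associated degradation. Granulocyte precursors pass much protein along this route while they fill their granules, and plasma cells are the classic cells with an enlarged ER.

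Many chaperone genes share short promoter sequences to which factors of this response bind. In textbook form these are the ER stress response element (ERSE), CCAAT and CCACG with any 9 bases between them, its variant ERSE-II, ATTGG and CCACG with any 1 base between them, the unfolded protein response element TGACGTGG (UPRE) and the element TTGCATCA (CARE), which binds ATF4 with a C/EBP partner. RefSeq promoters of the mouse assembly GRCm38.p6, from 250 bases before the annotated start to 50 after it, were given for 37 of the 48 tested members, and these were searched on both strands for exact matches. Because the members include chaperone genes by choice, the shares that follow describe the list and test nothing. ERSE was found in 7 of the 37 (18.9%), against 0.137% of the 27025 genes with a promoter. ERSE-II was found in 2 of the 37 (5.41%), against 0.0444% of all genes. The matched stretches are shown with 20 bases on either side, where the window reaches, since all 9 of these genes were lower in GFP_plus. Capitals mark the fixed letters of a match, in reverse complement where the match lies on the other strand.
Hspa5, chr2:34772005-34772063, plus strand: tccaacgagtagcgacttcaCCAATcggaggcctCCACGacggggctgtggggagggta
Hsp90b1, chr10:86705513-86705676, minus strand: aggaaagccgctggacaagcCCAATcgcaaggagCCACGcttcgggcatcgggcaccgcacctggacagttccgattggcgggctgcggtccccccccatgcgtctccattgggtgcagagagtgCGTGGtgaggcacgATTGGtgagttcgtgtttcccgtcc
Canx, chr11:50325780-50325838, minus strand: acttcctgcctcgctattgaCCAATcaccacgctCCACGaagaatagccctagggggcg
Calr, chr8:84847055-84847113, minus strand: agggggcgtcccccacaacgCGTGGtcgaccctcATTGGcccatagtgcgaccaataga
Pdia6, chr12:17266471-17266529, plus strand: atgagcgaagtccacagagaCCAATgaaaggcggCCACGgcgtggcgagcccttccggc
Dnajc3, chr14:118937807-118937865, plus strand: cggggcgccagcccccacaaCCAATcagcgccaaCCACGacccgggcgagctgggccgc
Creld2, chr15:88819500-88819558, plus strand: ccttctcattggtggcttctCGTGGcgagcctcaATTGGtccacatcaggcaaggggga
Herpud1, chr8:94386297-94386407, plus strand: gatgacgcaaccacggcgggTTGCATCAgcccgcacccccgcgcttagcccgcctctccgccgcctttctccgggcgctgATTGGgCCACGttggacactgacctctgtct
Dnajb11, chr16:22857832-22857882, plus strand: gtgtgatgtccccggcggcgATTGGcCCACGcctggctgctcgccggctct
Txndc5, chr13:38528025-38528072, minus strand: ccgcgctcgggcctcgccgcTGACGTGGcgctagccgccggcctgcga
The matches of Hspa5, Canx, Pdia6 and Dnajc3 read along the gene and begin 65, 145, 98 and 105 bases before the start. Those of Calr and Creld2 read on the opposite strand, 162 and 126 bases before it. Hsp90b1 holds both orientations. In Herpud1 an ERSE-II lies 52 bases before the start and a CARE 112 bases before it. Txndc5, the only member with a UPRE match, is shown because of the size of its fall. A UPRE was found in 0.714% of all genes. No matches in these members overlapped. The search describes letters in a window and no bound factor.

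The genes of protein entry and folding were mostly lower in GFP_plus cells. By limma's moderated test, adjusted over all 22956 tested probe sets, 35 of the 48 members were lower at an adjusted p under 0.05 and 2 were higher, while 11 were not called. Among all 10810 tested genes 27.6% were lower and 21.0% higher, 48.7% in either direction, and in the members 72.9% were lower and 4.17% higher. The median difference of the members, GFP_plus minus GFP_min, was −0.453 on the log2 scale, beside 0.0023 for all tested genes. In 38 members, 36 of them lower, the 3 arrays of one group lay wholly beyond the 3 of the other, as they did for 59.3% of all tested genes. Differences are on the scale of the deposited values. Centring the arrays on the median of the tested probe sets adds 0.20 to every difference, centring on 41 ribosomal protein genes adds 0.54 and centring on the bacterial poly-A control RNAs adds −0.41. Falls smaller than 0.54 therefore turn positive under ribosomal centring, where the median of the members is 0.0827 and that of all genes 0.538. A total of 16 members kept call and direction under all 3 centrings: Sdf2l1, Mzb1, Txndc5, Prdx4, Pdia3, Pdia4, Pdia6, Fkbp2, Sec61a1, Ssr2, Ssr4, Rpn2, Ostc, Atf6, Ern1 and Ddit3. Only Ddit3 among them was higher in GFP_plus.

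**Figure D1:**
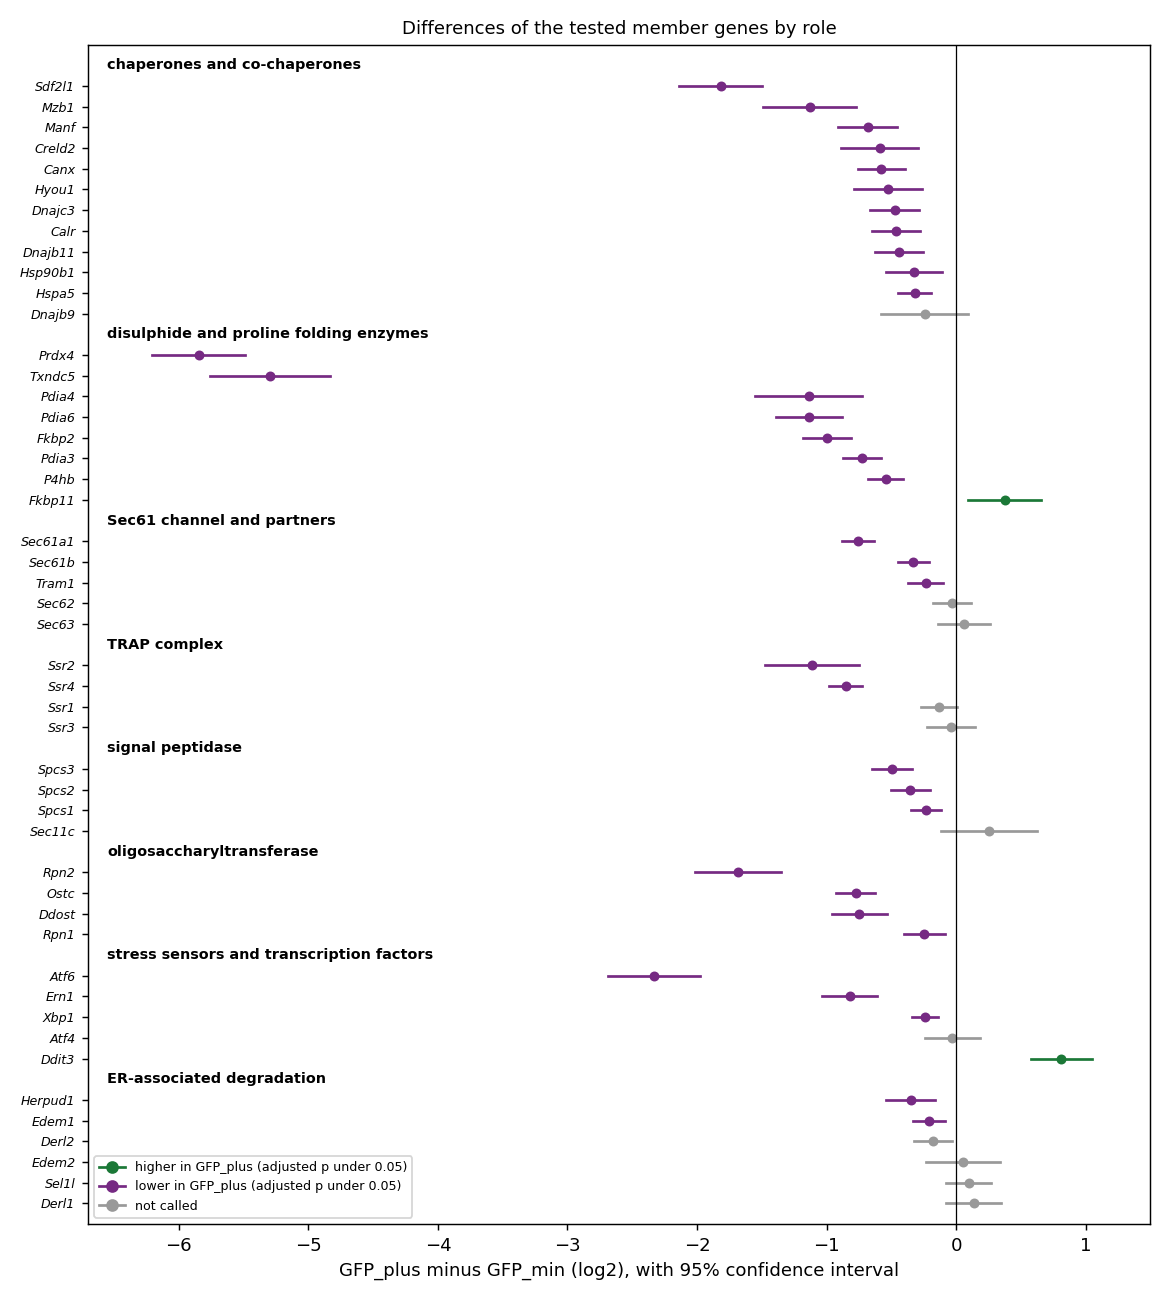
Difference between GFP_plus and GFP_min (log2, horizontal axis) of each of the 48 tested members, grouped by role, with points for limma estimates and lines for 95% confidence intervals. Most points lie left of 0, Prdx4 and Txndc5 beyond −5, and Ddit3 and Fkbp11 are the called members on the right.

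Markers of other cells moved between the same arrays. Each marker list was summed on the linear scale over the brightest probe set of each gene. Counts of called markers stand beside 27.6% lower and 21.0% higher among all tested genes. All 9 tested monocyte markers were lower in GFP_plus, with a summed signal of 3820 to 3920 in GFP_plus and 45100 to 47200 in GFP_min, and none of them lay below the array medians on all 6 arrays. All 8 markers of early neutrophil precursors were higher (20500 to 23300 in GFP_plus, 9240 to 9780 in GFP_min). So were 6 of 8 of mature neutrophils (81400 to 85500 in GFP_plus, 71100 to 73600 in GFP_min) and 7 of 7 of basophils, mast cells and eosinophils (724 to 740 in GFP_plus, 187 to 210 in GFP_min). In the last list Cpa3 and Fcer1a lay below the median of every GFP_min array. They passed the filter through GFP_plus alone, so they could only be called higher. Epx of that list did not pass the filter. Of the 8 plasma cell markers 5 were tested and 4 were lower (2110 to 2290 in GFP_plus, 4690 to 4990 in GFP_min), and Tnfrsf17, a receptor of plasma cells, lay below the median of every array. Irf4, among those lower, lay below the median of every GFP_plus array and passed the filter through GFP_min alone. Of the plasmacytoid dendritic cell markers 3 of 7 tested were lower (108 to 121 in GFP_plus, 467 to 675 in GFP_min), with Pacsin1 below the median of every array. For B cell markers 1 of 6 was lower (97.6 to 107 in GFP_plus, 112 to 121 in GFP_min), with Pax5 below the median of every array. The part of these cells in the member differences was not tested, and in sorted bulk samples fewer cells of a type and less RNA per cell cannot be told apart. Hdc itself, the basis of the sort, had log2 values of 12.01, 12.06 and 11.95 in GFP_plus, against 11.22, 11.16 and 11.19 in GFP_min. Itgam, which encodes CD11b, had 11.84, 11.72 and 11.97 in GFP_plus, against 11.85, 11.44 and 11.46 in GFP_min, with overlapping groups. The gap between 3' and 5' signal is a sign of RNA quality. For Gapdh it was 0.59 to 0.66 on the log2 scale in GFP_plus and 0.26 to 0.37 in GFP_min. For Actb it was 0.82 to 0.90 in GFP_plus and 0.79 to 0.83 in GFP_min, with overlapping groups.

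The deepest falls among the members were those of Prdx4 and Txndc5, enzymes that make and shuffle disulphide bonds. Of the 8 folding enzymes 7 were lower in GFP_plus and 1 was higher, beside 27.6% lower and 21.0% higher among all tested genes. Their median difference of −1.07 stayed below 0 under all 3 centrings (−0.865, −0.532 and −1.47). Prdx4, a peroxiredoxin of the ER that passes oxidising equivalents to the disulphide isomerases, had log2 values of 3.59, 3.65 and 3.11 in GFP_plus, against 9.22, 9.27 and 9.39 in GFP_min. The groups were far apart, and Prdx4 fell by 5.85 (SE 0.16, adjusted p = 3.94e-09), 57.6-fold. Txndc5, a disulphide isomerase with thioredoxin domains, had 3.71, 3.39 and 2.90 in GFP_plus, against 8.56, 8.86 and 8.45 in GFP_min, and fell by 5.30 (SE 0.21, adjusted p = 5.29e-08) or 39.3-fold. In GFP_plus both genes lay close to the medians of those arrays (2.85 to 2.88), so these folds rest on values near the dim end of the arrays. The second tested probe set of each was lower as well, Prdx4 by 2.03 and Txndc5 by 3.54. That of Prdx4 lay below the median of every GFP_plus array and passed the filter through GFP_min alone, so it could only be called lower.

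**Figure D2:**
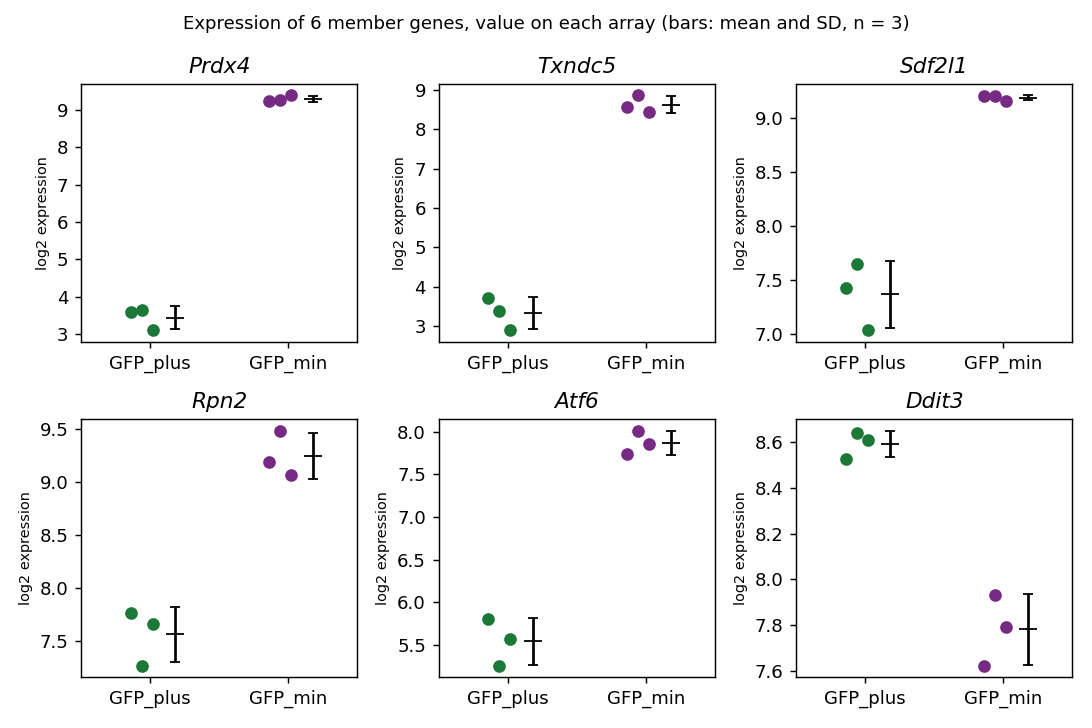
Deposited log2 expression (vertical axis) of 6 members on each array, with GFP_plus left of GFP_min. Points are arrays, and bars give the mean and SD of 3. In Prdx4, Txndc5, Sdf2l1, Rpn2 and Atf6 every GFP_plus array lies below every GFP_min array, and in Ddit3 every one lies above.

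The other isomerases shifted by about 1 log2 unit or less. Pdia4, which holds several thioredoxin-like domains, had 5.62, 5.45 and 5.13 in GFP_plus, against 6.20, 6.71 and 6.71 in GFP_min, and fell by 1.14 (adjusted p = 0.000772). Pdia6, whose promoter holds an ERSE, had 8.77, 8.39 and 8.70 in GFP_plus, against 9.78, 9.86 and 9.61 in GFP_min, and fell by 1.13 (adjusted p = 3.23e-05). The groups of both genes were separate. Pdia3, which works on glycoproteins together with calnexin and calreticulin, fell by 0.73, and P4hb, the founding disulphide isomerase, fell by 0.54. Fkbp2, a proline isomerase of the ER, fell by 1.00. Its relative Fkbp11 was the exception, with 3.49, 3.49 and 3.33 in GFP_plus, against 3.03, 2.88 and 3.27 in GFP_min, and rose by 0.37 (adjusted p = 0.0346). These values lay near the array medians, and the call was lost without GFP_plus a (0.35), GFP_plus b (0.35), GFP_min a (0.36) or GFP_min b (0.28), and with poly-A centring (−0.03).

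Chaperones and their co-chaperones were lower for 11 of 12, beside 27.6% of all tested genes. Their median of −0.501 turned to 0.0351 with ribosomal centring. Sdf2l1, a partner of the Hsp70 chaperone of the ER, had 7.43, 7.65 and 7.04 in GFP_plus, against 9.20, 9.20 and 9.16 in GFP_min. It fell by 1.82 (SE 0.14, adjusted p = 6.20e-06), 3.53-fold and the most in this class, and the GFP_min arrays lay within a narrow range. Mzb1, which assists antibody assembly in B cells and plasma cells, had 3.32, 3.27 and 2.86 in GFP_plus, against 4.46, 4.31 and 4.08 in GFP_min, and fell by 1.13 (adjusted p = 0.000315) to near the array medians. Of the 5 tested plasma cell markers 4 were lower, among them Jchain at −4.18 and Ighm at −0.46, while Pou2af1 differed by −0.09 without a call. The markers Sdc1, Prdm1 and Tnfrsf17 did not pass the filter. The part of plasma cells in the Mzb1 difference was not tested. Manf, a small secreted protein of the stressed ER, had 8.32, 8.23 and 8.25 in GFP_plus, against 9.02, 8.76 and 9.06 in GFP_min, and fell by 0.68 (adjusted p = 0.000440). Creld2, another secreted stress-induced protein, had 7.40, 7.28 and 7.40 in GFP_plus, against 7.73, 8.21 and 7.91 in GFP_min, and fell by 0.59 (adjusted p = 0.00505). Both sets of groups were separate.

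The central chaperones shifted less. Hspa5 (BiP), the Hsp70 of the ER, was named after its values were seen, and had 11.24, 11.17 and 11.34 in GFP_plus, against 11.56, 11.56 and 11.58 in GFP_min, and fell by 0.32 (adjusted p = 0.00135). Its probe sets disagreed: a second one differed by −0.24 without a call, and another, of the x_at type that may match other transcripts, rose by 0.64. With the mean of its probe sets the difference of Hspa5 was 0.03, and with ribosomal centring 0.22. Hsp90b1 (GRP94), the Hsp90 of the ER, fell by 0.32 with overlapping groups, and lost its call without any 1 of GFP_plus a (−0.28), GFP_plus c (−0.27), GFP_min a (−0.29) or GFP_min c (−0.28). Its other probe set fell by 1.02. The lectin chaperones Canx (calnexin) and Calr (calreticulin), which hold glycoproteins until they are folded, fell by 0.58 and 0.47. Hyou1, which exchanges nucleotide on Hspa5, fell by 0.53 at values near the array medians. A second probe set of Hyou1 differed by −0.04 without a call, and with the mean of probe sets the call was lost (−0.28). Of the J-domain partners of Hspa5, Dnajc3 fell by 0.48 and Dnajb11 by 0.44. Dnajb9 differed by −0.24 without a call (95% confidence interval −0.58 to 0.09, adjusted p = 0.217), and a difference between these partners was not tested. Dnajb9 passed the test without GFP_min replicate b, at −0.39 (limma adjusted p = 0.0390). Calr, Hsp90b1, Hyou1, Dnajb11 and Dnajc3 turned positive with ribosomal centring, with values of 0.01 to 0.21.

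The Sec61 channel and its partners were lower for 3 of 5, beside 27.6% of all tested genes. Their median of −0.236 turned to 0.299 with ribosomal centring. Sec61a1, the pore-forming subunit, had 10.60, 10.60 and 10.61 in GFP_plus, against 11.33, 11.42 and 11.33 in GFP_min. Its GFP_plus arrays lay very close together, and the gene fell by 0.76 (SE 0.05, adjusted p = 3.47e-06) and kept its call under all 3 centrings. Sec61b, a small tail-anchored subunit, had 12.21, 12.18 and 12.35 in GFP_plus, against 12.54, 12.58 and 12.60 in GFP_min, and fell by 0.33. Tram1, which stands beside the channel and helps some signal sequences in, had 10.93, 11.03 and 10.91 in GFP_plus, against 11.24, 11.12 and 11.22 in GFP_min, and fell by 0.24. With the mean of its probe sets Tram1 lost its call (−0.15). The groups of each were separate, though by little in Tram1. Sec62 and Sec63, which help proteins enter after their synthesis is complete, differed by −0.03 (interval −0.18 to 0.12) and 0.06 (−0.14 to 0.26). In Sec63 3 other probe sets were lower, and the mean of its probe sets differed by −0.35 (limma adjusted p = 0.00841).

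Of the 4 subunits of the TRAP complex 2 were lower and 2 without a call, beside 27.6% lower among all tested genes. The complex sits beside the channel and aids the entry of some chains. The median of its subunits was −0.493, or 0.043 with ribosomal centring. Ssr2 had 6.52, 6.47 and 6.08 in GFP_plus, against 7.50, 7.23 and 7.68 in GFP_min, and fell by 1.11 (adjusted p = 0.000371). Ssr4 had 10.10, 10.11 and 10.10 in GFP_plus, against 10.91, 10.96 and 11.00 in GFP_min, and fell by 0.85 (adjusted p = 2.35e-06). Both had separate groups and kept their calls under all 3 centrings, although only 1 of the 2 probe sets of Ssr4 was called. Ssr1 differed by −0.13 (interval −0.27 to 0.01) and Ssr3, by a probe set of the x_at type, by −0.04 (−0.23 to 0.15), neither called. Other probe sets of both were lower, 2 of Ssr1 by −0.37 and −0.50 and 1 of Ssr3 by −0.28, and with the mean of probe sets all 4 subunits were called lower (limma), Ssr1 at −0.30 and Ssr3 at −0.16. The difference between subunits was not tested.

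Signal peptidase was lower for 3 of 4 subunits, beside 27.6% of all tested genes. Its median of −0.294 turned to 0.242 with ribosomal centring. Spcs3, which supports the catalytic subunit, had 9.98, 9.89 and 9.99 in GFP_plus, against 10.39, 10.53 and 10.43 in GFP_min, and fell by 0.50 (adjusted p = 0.000262). Spcs2 had 10.35, 10.18 and 10.25 in GFP_plus, against 10.58, 10.65 and 10.62 in GFP_min, and fell by 0.35. The small membrane subunit Spcs1 had 11.33, 11.33 and 11.37 in GFP_plus, against 11.52, 11.60 and 11.61 in GFP_min, and fell by 0.23. The arrays of each group were closely spaced and the groups separate. With the mean of its probe sets Spcs1 lost its call (−0.20). Sec11c, a catalytic subunit, had 11.62, 12.00 and 11.46 in GFP_plus, against 11.57, 11.06 and 11.70 in GFP_min, overlapping groups with a wide interval (−0.12 to 0.63, adjusted p = 0.244).

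All 4 oligosaccharyltransferase subunits were lower, beside 27.6% of all tested genes. Their median of −0.762 stayed below 0 under all 3 centrings (−0.56, −0.227 and −1.17). Rpn2, ribophorin II, had 7.76, 7.27 and 7.66 in GFP_plus, against 9.19, 9.48 and 9.06 in GFP_min. It fell by 1.68 (SE 0.15, adjusted p = 1.48e-05), 3.21-fold and the most among the genes of entry. Ostc, which couples the enzyme to the channel, had 9.08, 9.10 and 9.10 in GFP_plus, against 9.85, 9.89 and 9.87 in GFP_min, and fell by 0.78 (adjusted p = 1.40e-05), while its second probe set was not called. Ddost, a structural subunit, had 8.80, 8.65 and 8.79 in GFP_plus, against 9.39, 9.65 and 9.44 in GFP_min, and fell by 0.75 (adjusted p = 0.000151). Rpn1, ribophorin I, had 10.89, 10.67 and 10.90 in GFP_plus, against 11.08, 11.10 and 11.04 in GFP_min, and fell by 0.25 (adjusted p = 0.0182). It was measured by a probe set of the x_at type, and all 5 of its tested probe sets were lower. Groups were separate in all 4, with Rpn1 the closest to overlap. Without GFP_min replicate a Rpn1 lost its call (−0.24, limma adjusted p = 0.0521), and with ribosomal centring it turned to 0.29.

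Of the 5 sensors and transcription factors of the stress response, 3 were lower and 1 was higher. Among all tested genes 27.6% were lower and 21.0% higher. Atf6, an ER membrane protein that is cut to release a transcription factor, had 5.80, 5.25 and 5.56 in GFP_plus, against 7.74, 8.01 and 7.86 in GFP_min. All GFP_plus arrays lay far below the GFP_min arrays, and the gene fell by 2.33 (SE 0.16, adjusted p = 2.30e-06) or 5.03-fold, and its other 2 tested probe sets fell by 0.64 and 0.43. Ern1 (IRE1), the sensor that splices Xbp1 mRNA, had 8.84, 8.60 and 8.67 in GFP_plus, against 9.42, 9.64 and 9.51 in GFP_min, and fell by 0.82 (adjusted p = 8.80e-05). Xbp1, the factor made from the spliced mRNA, had 12.00, 11.93 and 11.92 in GFP_plus, against 12.20, 12.21 and 12.18 in GFP_min, and fell by 0.24 (adjusted p = 0.00154). Groups were separate in both genes, but the Xbp1 fall was small. Of the 4 probe sets of Xbp1 3 were lower and 1 was higher by 0.27. The higher one lay below the median of every GFP_min array and passed the filter through GFP_plus alone, so it could only be called higher. Ribosomal centring turned Xbp1 to 0.29. Spliced and unspliced Xbp1 were not told apart here. Ddit3 (CHOP), a factor induced downstream of PERK and Atf4, had 8.53, 8.64 and 8.61 in GFP_plus, against 7.62, 7.93 and 7.79 in GFP_min. Every GFP_plus array lay above every GFP_min array, and the gene rose by 0.81 (SE 0.11, adjusted p = 0.000182) or 1.75-fold, a difference that stayed positive under all 3 centrings (1.01, 1.35 and 0.40). Its second probe set differed by 0.39, not called. Atf4 had 10.19, 10.07 and 10.45 in GFP_plus, against 10.33, 10.27 and 10.19 in GFP_min, overlapping groups with a difference of −0.03 (interval −0.24 to 0.19, adjusted p = 0.827). A second probe set of Atf4, of the x_at type, was higher by 0.59, and the mean of both gave 0.28 (limma adjusted p = 0.0467).

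Of the 6 genes of ER-associated degradation, which returns misfolded proteins to the cytosol, 2 were lower, beside 27.6% of all tested genes. The class median was −0.0613, beside 0.0023 for all tested genes, and turned to 0.141 with median centring and to 0.474 with ribosomal centring. Herpud1, a membrane protein that gathers the degradation complex, had 9.01, 9.09 and 9.01 in GFP_plus, against 9.26, 9.43 and 9.47 in GFP_min, and fell by 0.35 (adjusted p = 0.00694), while its second probe set was not called. Edem1, a lectin that marks misfolded glycoproteins, had 10.96, 10.93 and 10.90 in GFP_plus, against 11.07, 11.17 and 11.18 in GFP_min, and fell by 0.21 (adjusted p = 0.0125). Groups were separate in both. Without GFP_min replicate c Edem1 lost its call (−0.19, limma adjusted p = 0.0563), and both genes turned positive with ribosomal centring. Derl2, a derlin of the exit channel, differed by −0.18 (adjusted p = 0.0520), its relative Derl1 by 0.13, the adaptor Sel1l by 0.10 and Edem2 by 0.05, none called. Their intervals lay between −0.32 and 0.35.

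**Figure D3:**
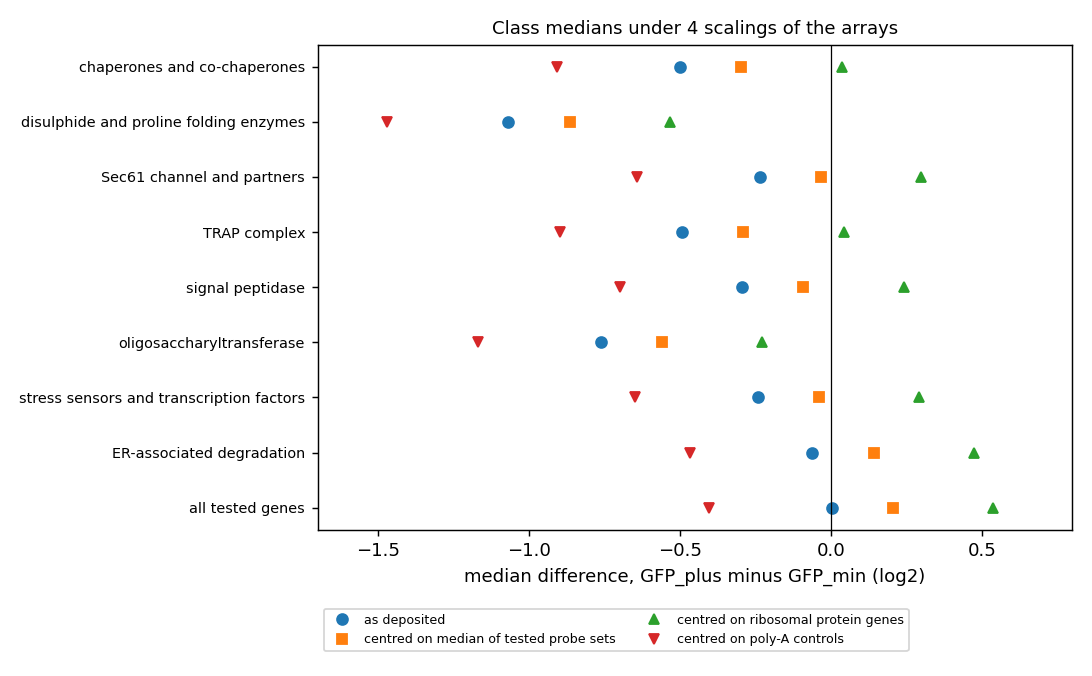
Median difference between GFP_plus and GFP_min (log2, horizontal axis) of the 8 role classes and of all tested genes, under the deposited scale and 3 centrings of the arrays, each marked by its own symbol. On the deposited scale every class median lies left of the median of all genes (0.0023), and each centring moves classes and all genes together.

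The 9 members with an ERSE or ERSE-II are shown above. On the deposited scale these 9 genes differed by −0.32 to −1.13, with a median of −0.47, and all 9 were called lower. Hspa5 was no longer lower with the mean of its probe sets, and Hsp90b1 lost its call in several fits without 1 array. With ribosomal centring Hspa5, Hsp90b1, Calr, Dnajb11, Dnajc3 and Herpud1 turned positive, while Canx, Creld2 and Pdia6 stayed negative. Only Pdia6 of the 9 kept its call under all 3 centrings. The other 28 members with a promoter entry spanned −5.85 to 0.81 with a median of −0.24, and 17 of them were lower and 2 higher. Outside the members, 5 tested genes held an ERSE, of which Ero1b was lower and Syvn1 higher, and 6 held an ERSE-II, of which Krtcap2 and Rcl1 were lower and Lrif1 higher. TTGCATCA was found in 1.03% of all genes, and of the 68 tested genes outside the members that hold it 30.9% were higher and 29.4% lower. For the 88 such genes with a UPRE the shares were 17% higher and 25% lower. Among all 8825 tested genes with a promoter 21.1% were higher and 27.6% lower. These shares are a description without a test.

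Other genes of the same pathways were followed in 5 lists of 82 genes, of which 75 were tested. Of the 75, 40 were lower and 9 higher, and with ribosomal centring 13 were lower and 37 higher. Among all tested genes 27.6% were lower and 21.0% higher on the deposited scale. Of 17 other folding enzymes and chaperones 12 were lower and 1 was higher, with a median of −0.574, and with ribosomal centring 4 were lower and 7 higher, with a median of −0.0387. Erp29, a chaperone of the thioredoxin fold, fell by 1.10, the proline isomerase Fkbp7 by 0.98 and Ero1b, an oxidase that recharges disulphide isomerases, by 0.87. Its relative Ero1a, named after its values were seen, was the 1 that rose, by 0.36, and stood at −0.04 without a call with poly-A centring. Of 16 other genes of protein entry 12 were lower and 0 higher, with a median of −0.441, and at an unadjusted limma p under 0.05 0 were higher. Krtcap2, Dad1 and Tusc3, all subunits of the oligosaccharyltransferase, fell by 1.37, 1.19 and 1.18. Of 18 genes of ER exit and retrieval 9 were lower and 0 higher (median −0.301, with 1 higher at an unadjusted limma p under 0.05). Lman1, a cargo receptor from the ER to the Golgi, had 6.40, 5.90 and 6.61 in GFP_plus, against 7.89, 8.12 and 7.88 in GFP_min, and fell by 1.66 (SE 0.18, adjusted p = 4.90e-05) with separate groups. The COPII coat adaptors Sec24d and Sec24a fell by 1.26 and 0.98. With ribosomal centring 4 entry genes were lower and 4 higher (median 0.0943), and 4 exit genes were lower and 9 higher (median 0.235).

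Among 12 other stress response genes, whose median was 0.117, 5 were higher and 3 lower, beside 21.0% higher and 27.6% lower among all tested genes. The counts of this list were 7 higher and 1 lower with median centring (median 0.319), 9 higher and 0 lower with ribosomal centring (0.652) and 2 higher and 6 lower with poly-A centring (−0.289). A difference between this list and the others was not tested. Asns, asparagine synthetase and a target of ATF4, was measured by a probe set of the x_at type and had 8.29, 8.61 and 8.57 in GFP_plus, against 7.21, 7.50 and 7.74 in GFP_min, and rose by 1.01 (SE 0.15, adjusted p = 0.000378). Chac1, an enzyme of glutathione breakdown and another ATF4 target, had 6.20, 6.35 and 6.28 in GFP_plus, against 5.45, 5.54 and 5.31 in GFP_min, and rose by 0.84 (SE 0.13, adjusted p = 0.000595). In both genes the groups were separate, and the rise stayed positive and called under all 3 centrings, at 0.60 and 0.43 with poly-A centring. Trib3, a pseudokinase induced by ATF4 and CHOP, rose by 0.50, and without GFP_plus c (0.42), GFP_min a (0.41) or GFP_min b (0.47) it lost its call. It was also measured by a probe set of the x_at type. Eif2ak3 (PERK), the kinase that raises ATF4 translation, rose by 0.17 and Ppp1r15b, a subunit of the phosphatase that opposes it, by 0.19. Both turned negative with poly-A centring (−0.23 and −0.21). The Eif2ak3 call was lost without any 1 of GFP_plus a (0.17), GFP_plus b (0.19), GFP_plus c (0.15), GFP_min a (0.17) or GFP_min c (0.13), and that of Ppp1r15b without GFP_plus a (0.19), GFP_plus c (0.15) or GFP_min c (0.14). Atf3, a factor of the same branch, fell by 0.55 (adjusted p = 0.0110). The promoters of Chac1 and Atf3 both hold a CARE. The proteases that cut Atf6, Mbtps1 and Mbtps2, fell by 0.52 and 0.43. None of these 3 falls was called with ribosomal centring, where Atf3 was at −0.01, Mbtps1 at 0.02 and Mbtps2 at 0.10. Mbtps2 also lost its call without GFP_plus a (−0.39), GFP_plus c (−0.34), GFP_min b (−0.36) or GFP_min c (−0.44). Trib3, Eif2ak3, Ppp1r15b, Mbtps1 and Mbtps2 were named after their values were seen.

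Of 12 other degradation genes 4 were lower and 3 higher, with a median of 0.0057. These counts were near the shares of all tested genes, 27.6% lower and 21.0% higher. Selenos, a selenoprotein of the degradation complex, fell by 0.80 (adjusted p = 1.24e-05), the mannosidase-like Edem3 by 0.52 and the lectin Erlec1 by 0.36. The 3 higher ones, named after their values were seen, were Ngly1, which removes sugar chains in the cytosol (0.36), Ufd1, a cofactor of the segregase Vcp (0.33), and Syvn1, the ubiquitin ligase HRD1 (0.32). With poly-A centring 0 genes of this list were higher and 6 lower (limma), and Ngly1, Ufd1 and Syvn1 stood at −0.05, −0.07 and −0.09 without a call. With ribosomal centring 8 were higher and 1 lower. Ufd1 also lost its call without GFP_plus a (0.26), GFP_plus c (0.34), GFP_min b (0.25) or GFP_min c (0.31). A difference between this list and the others was not tested.

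**Figure D4:**
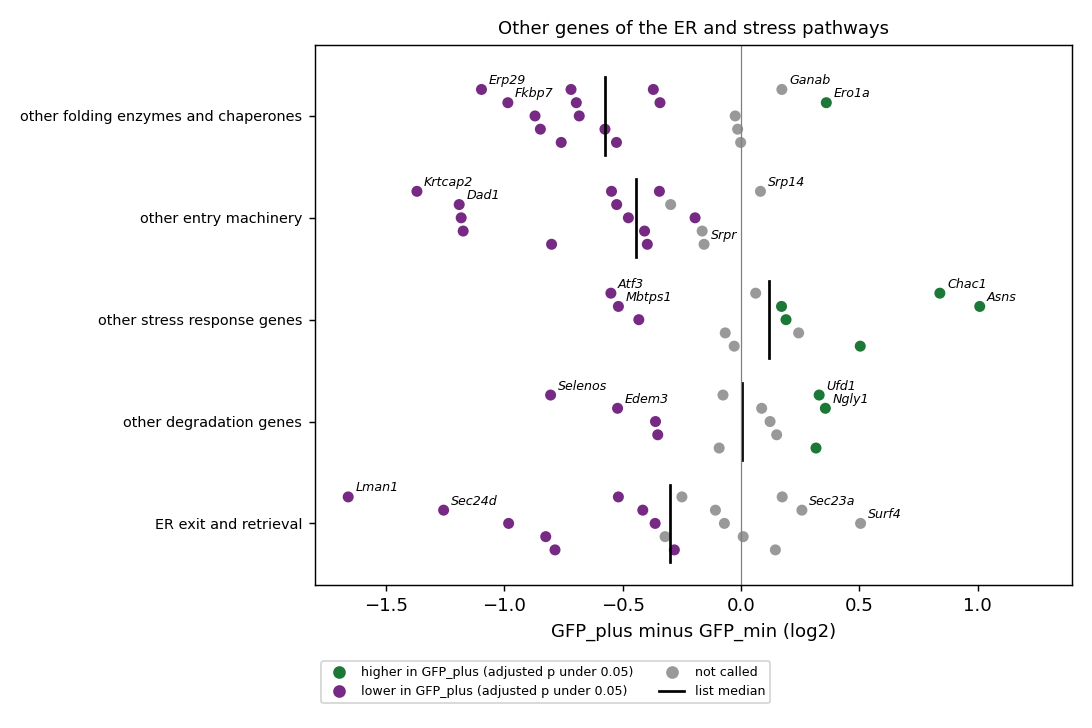
Differences between GFP_plus and GFP_min (log2, horizontal axis) of the 75 tested genes in 5 further lists, a point a gene, with the outermost genes named and black lines at the list medians. Folding, entry and exit genes lie mostly left of 0, while Asns (1.01) and Chac1 (0.84) lie farthest to the right among the stress response genes.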

How the data were processed

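RNA of sorted marrow cells was measured on 6 Affymetrix arrays, 3 of GFP_plus and 3 of GFP_min. The authors deposited 1 table of log2 values for 45101 probe sets, made with GCRMA per the submitters' processing notes, whose version is not given in the sources used here. Arrays have no read depth, and their number limits the precision.

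The deposited log2 values were used without further scaling. The 64 control probe sets were left out, and 22956 probe sets above their own array's median on at least 3 of 6 arrays entered limma 3.58.1 (R 4.3.3), in which lmFit was followed by eBayes with its trend option. P-values were adjusted by Benjamini-Hochberg across these probe sets, with 0.05 as the threshold. GFP_plus and GFP_min were the only groups, with no covariate. Of the probe sets 34958 had a single symbol, 932 several and 9160 non-control ones none in the platform annotation, and each gene was represented by its brightest tested probe set. Fold changes are 2 to the power of the log2 difference. Promoters and their coordinates come from RefSeq tables of GRCm38.p6.

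Members and lists were chosen with earlier results of these data known. Values in every sample are given for up to 4 called members of each of 8 role classes with the largest absolute difference and for all stress sensors and transcription factors, and up to 3 called genes of each further list are named. Fkbp11, Hspa5 and Sec11c, and further genes marked in the text, were added after their values were seen. The labels do not say whether the replicate letters a, b and c pair the samples. Deviations of same-letter arrays from their group means correlated at −0.182, −0.303 and −0.22. With 3 arrays per group such values cannot settle the pairing. Alternatives were the filter, the intensity trend, array weights, quantile normalization, 3 centrings, the mean of probe sets, a minimum difference, a replicate block and leaving out each array. Those for the further lists were added after the data were seen.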

Additional observations from a re-analysis of the deposited data

How the results depend on the processing

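The count of higher members was 2 and became 1 without the filter, 6 with centring on the median of tested probe sets, 20 with ribosomal centring, 1 with poly-A centring, 0 with a minimum difference of 0.5 (limma's treat) and 1 to 2 with 1 array left out. The count of lower members was 35. It became 25 with median, 15 with ribosomal and 44 with poly-A centring, and 15 with the minimum difference. Without the intensity trend it was 31, and with 1 array left out 33 to 36. The median of all tested members was −0.453. It became −0.398 with array weights, −0.251 with median centring, 0.0827 with ribosomal centring and −0.858 with poly-A centring. With 1 array left out it was −0.464 to −0.416. With the replicate block, 1 member was higher and 31 were lower, and no array correlated best with its own letter. With ribosomal centring these differences turned positive: Hspa5 0.22, Hsp90b1 0.21, Hyou1 0.01, Calr 0.07, Dnajb11 0.10, Dnajc3 0.06, Sec61b 0.21, Sec62 0.50, Tram1 0.30, Ssr1 0.40, Ssr3 0.49, Spcs1 0.30, Spcs2 0.18, Spcs3 0.04, Rpn1 0.29, Xbp1 0.29, Atf4 0.51, Herpud1 0.18, Edem1 0.33, Derl2 0.36, Dnajb9 0.29, Edem3 0.01, Erlec1 0.17, Mbtps1 0.02 and Mbtps2 0.10. With poly-A centring these turned negative: Fkbp11 −0.03, Sec63 −0.34, Sel1l −0.31, Derl1 −0.27, Sec11c −0.15, Edem2 −0.35, Ppp1r15b −0.21, Eif2ak3 −0.23, Ero1a −0.04, Ngly1 −0.05, Ufd1 −0.07 and Syvn1 −0.09. With the mean of probe sets Hspa5 was 0.03, Sec63 −0.35 and Atf4 0.28, the calls of Hyou1 (−0.28), Tram1 (−0.15) and Spcs1 (−0.20) were lost, and Ssr1 (−0.30) and Ssr3 (−0.16) became called. A centring adds 1 constant to every difference by construction. Among all called genes the higher ones made up 43.2%, against 50.2% with quantile normalization, 68.1% with median, 86% with ribosomal and 6.51% with poly-A centring. Of the 37 called members 15 kept call and direction under every alternative. Values near the array medians limit what can be read for Fkbp11, Hyou1 and Mzb1, and for Prdx4 and Txndc5 in GFP_plus.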
